A study of Mus musculus with 2 samples.

Results

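Integrins are the cell surface receptors, each made of an α and a β subunit, by which cells hold on to the extracellular matrix and to each other, and laminins are the trimeric matrix proteins of basement membranes that many integrins bind. The members were all genes with the mouse symbol of an integrin α or β subunit or of a laminin α, β or γ chain, and each gene was represented by its transcript of highest mean level. Of 38 such symbols, 37 were in the mRNA table, 26 integrins and 11 laminins, among 20317 genes in all. Itga10 had no transcript there. The 26 include Itgb2l, a gene named as integrin beta 2-like that fits the symbol pattern; it was listed at 0 in both libraries and enters no ratio.

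The study compared hepatocytes of mice with carbon tetrachloride (CCl4) liver fibrosis, in which repeated toxic injury of hepatocytes leads to scarring, with hepatocytes of mice given the carrier. There were 2 libraries of total RNA, 1 per group, both from the livers of WT C57BL/6J mice. The mice were male and 5 weeks old by the methods. The oil group received mineral oil by intraperitoneal injection, recorded with the same number of injections per week and weeks as the CCl4 group. The CCl4 group received a 20% solution of CCl4 in mineral oil by the same route, 2.5 ml of CCl4 per kg of body weight, 2 injections per week, for 8 weeks by the labels and 4 weeks by the methods. The cells came from an enzyme perfusion of the liver and a density gradient, which can leave other liver cells in the preparation. How many mice gave each library was not stated. With 1 library per group no difference below has a replicate check and none has a p-value, and the differences are between these 2 libraries.

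Each integrin α subunit pairs with a β subunit, and the pair decides what is bound: collagens, laminins, proteins that carry the Arg-Gly-Asp (RGD) sequence, or receptors on other cells. Laminin chains join as 1 α, 1 β and 1 γ, and with type IV collagen, nidogen and perlecan they build the basement membrane. The healthy sinusoid of the liver lacks a continuous basement membrane, and the appearance of one along the sinusoids is a classical feature of fibrosis.

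Levels were given as RPKM, the reads of a transcript scaled to its length and to the size of the library, and any value under 1 RPKM was listed at 0. A member was tested if it reached 1 RPKM in a library, values under 1 RPKM were set to 1 RPKM, and a log2 ratio of CCl4 over oil of at least 1 in either direction was called. Of the 37 members, 26 could be tested, 18 integrins and 8 laminins, and 18 were called higher in the CCl4 library and 0 lower. Among all 12012 genes tested, 16.5% were called higher and 5.39% lower. The share called higher was 61.1% of the integrins tested and 87.5% of the laminins. Lama1 and Lama2, listed at 0 in oil, were tested only through the CCl4 library and could only be called higher. With at least 1 RPKM required in both libraries, 16 of 24 members were called higher, 5 of them laminins, and 0 lower. The median log2 ratio of the 10689 genes tested that way was 0.30, and the share of them called was not counted. The median log2 ratio was 1.31 for integrins and 1.79 for laminins, beside 0.33 for all genes tested. A gene at under 2 RPKM in the oil library could not be called lower, and 17 of the 26 members were at or over that level. After both libraries were scaled to the same median mRNA, a shift of 0.3254 in log2, 15 members were called higher and 0 lower, and the background became 9.04% higher and 9.82% lower.

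**Figure D1:**
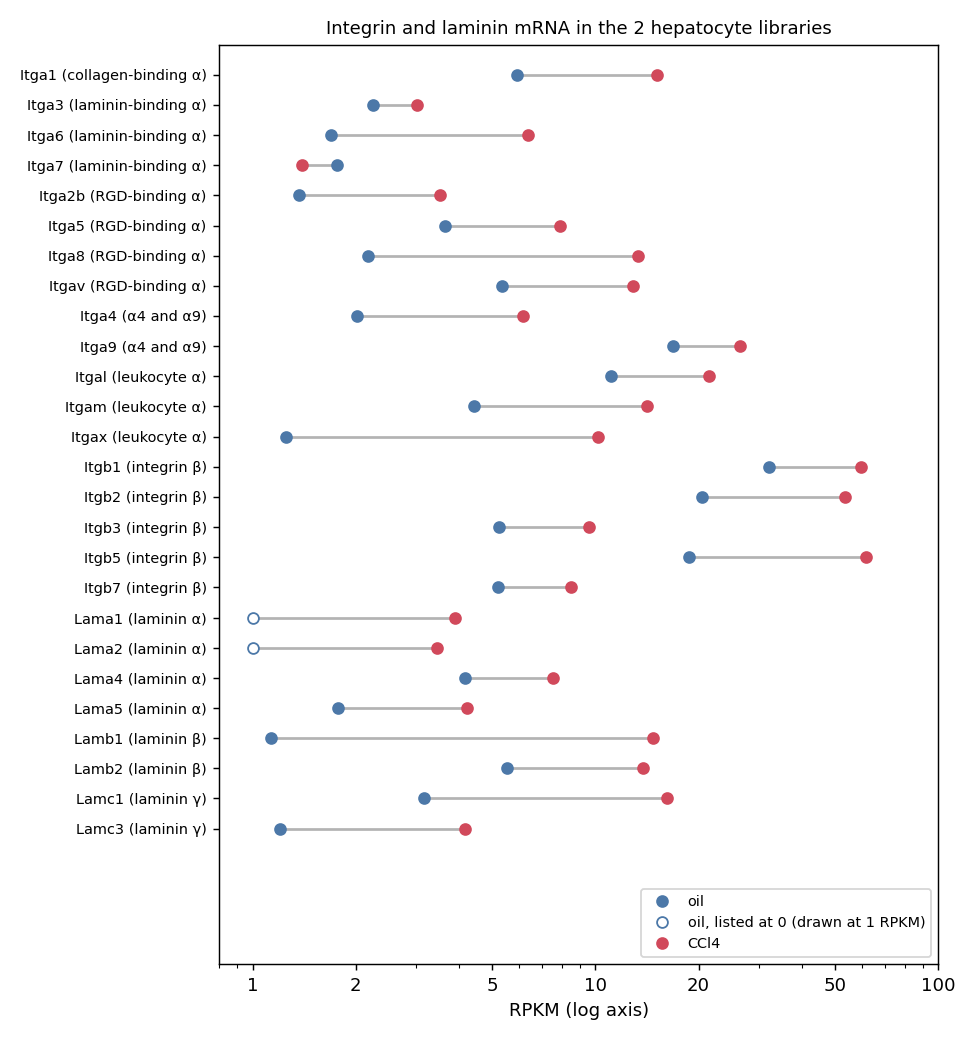
Level of the 26 integrin and laminin genes with at least 1 RPKM in a library, in RPKM on a log axis, in the oil library (blue) and the CCl4 library (red); open points are genes listed at 0 in oil, drawn at 1 RPKM. The CCl4 point lies to the right of the oil point for each gene except Itga7, at 1.76 RPKM in oil and 1.39 RPKM in CCl4.

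The depth behind these values was inferred from the RPKM steps of short genes, which placed the oil library at 57992573 reads and the CCl4 library at 64655556. The members with a value in both libraries rested on at least 206 to 4362 reads in oil and 362 to 9049 reads in CCl4. The 95% interval given with a log2 ratio is an exact Clopper-Pearson interval from these least numbers of reads and covers counting error only, not differences between mice or preparations. Its half-width was at most 0.22 in log2. It lay over the call for 16 of the 24 members with a value in both libraries, spanned it for Itgal, Itgb3 and Lama4, and lay under it for 5.

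The labelled cell type was checked against its markers. Albumin (Alb) was at 8656 RPKM in oil and 6476 RPKM in CCl4, and the 6 hepatocyte markers summed to 16823 and 9887 RPKM, with 4 of 6 called lower. Markers of other liver cells were also present and differed between the libraries. The 11 markers of stellate cells and myofibroblasts, the matrix-producing cells of fibrosis, were all called higher and summed to 81.3 RPKM in oil and 929 RPKM in CCl4. The 6 markers of Kupffer cells and macrophages summed to 777 and 1482 RPKM with 4 called higher (1 after scaling), and the 6 of sinusoidal endothelial cells to 416 and 685 RPKM with 1 called higher (0 after scaling). The cholangiocyte markers summed to 50.9 and 170.2 RPKM with 2 of 4 tested called higher (1 after scaling or with 1 RPKM added) and Sox9 and Cftr listed at 0. Most of that sum was Spp1, also a matrix ligand, and without it the sums were 13.4 and 25.1 RPKM with 1 of 3 called higher. That gene was Krt19, at a log2 ratio of 1.01, and its call was lost after scaling, at 0.68. The mesothelial markers summed to 24.8 and 42.1 RPKM with 1 of 3 called higher. In bulk RNA, a different number of cells of a type and a different amount of RNA per cell cannot be told apart, and the part of these cell types in the member values was not tested.

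Both laminin β chains with a value were called higher, Lamb1 by far more than Lamb2. Lamb1, the laminin β1 chain (chr12:31265146-31329644 in GRCm38.p6), was at 1.13 RPKM in oil and 14.7 RPKM in CCl4. Its log2 ratio of 3.70 (3.53 to 3.86), 13.0-fold, was the highest of the 24 members with a value in both libraries. With values under 1 RPKM set to 1, it ranked 23 among the 12012 genes tested. Lamb2, the β2 chain, was at 5.51 RPKM in oil and 13.8 RPKM in CCl4, a log2 ratio of 1.33 (1.23 to 1.43). In oil Lamb1 stood at 0.205 of the level of Lamb2 per length, and in CCl4 at 1.06. Lamb1 thus made up 17.0% of the summed laminin β RPKM in oil and 51.5% in CCl4. Lamb3, a β chain of laminins that anchor epithelia, was listed at 0 in both libraries.

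The laminin γ1 chain, which is shared by most laminins, differed in the same direction. Lamc1 (chr1:153218922-153332786) was at 3.17 RPKM in oil and 16.2 RPKM in CCl4, a log2 ratio of 2.35 (2.24 to 2.47) or 5.11-fold, rank 172. Lamc3 was at 1.20 RPKM in oil and 4.16 RPKM in CCl4, a log2 ratio of 1.80 (1.57 to 2.02). Both γ chains were called higher, and Lamc1 kept the larger share of the γ sum, 72.6% in oil and 79.6% in CCl4.

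Among the laminin α chains, which carry the main integrin-binding part of the trimer, the CCl4 library held 2 that the oil library did not list. Lama1 was listed at 0 (under 1 RPKM) in oil and was at 3.89 RPKM in CCl4. Lama2 was listed at 0 in oil and was at 3.46 RPKM in CCl4. Against the floor of 1 RPKM these are log2 ratios of at least 1.96 and 1.79, and no fold is given because the oil level is not known. Lama5, the α chain of many mature epithelial and vascular basement membranes, was at 1.78 RPKM in oil and 4.22 RPKM in CCl4, a log2 ratio of 1.25 (1.10 to 1.4) that fell to 0.92 after scaling. Lama4, a chain of vessel walls, was at 4.16 RPKM in oil and 7.5 RPKM in CCl4, and its log2 ratio of 0.85 (0.70 to 1.0) was not called. Lama4 made up 70% of the laminin α RPKM listed in oil and 39.3% in CCl4. Lama1 and Lama2 entered the oil sum as 0, so the oil share of Lama4 is an upper bound. The drop in its share thus depends in part on the floor, and the α sum in oil is a lower bound. Lama3, an α chain of epithelial laminins, was listed at 0 in both libraries. All 3 chain classes summed to more in the CCl4 library, the α chains to 5.94 RPKM in oil and 19.1 RPKM in CCl4, the β chains to 6.64 and 28.5 RPKM and the γ chains to 4.37 and 20.4 RPKM.

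**Figure D2:**
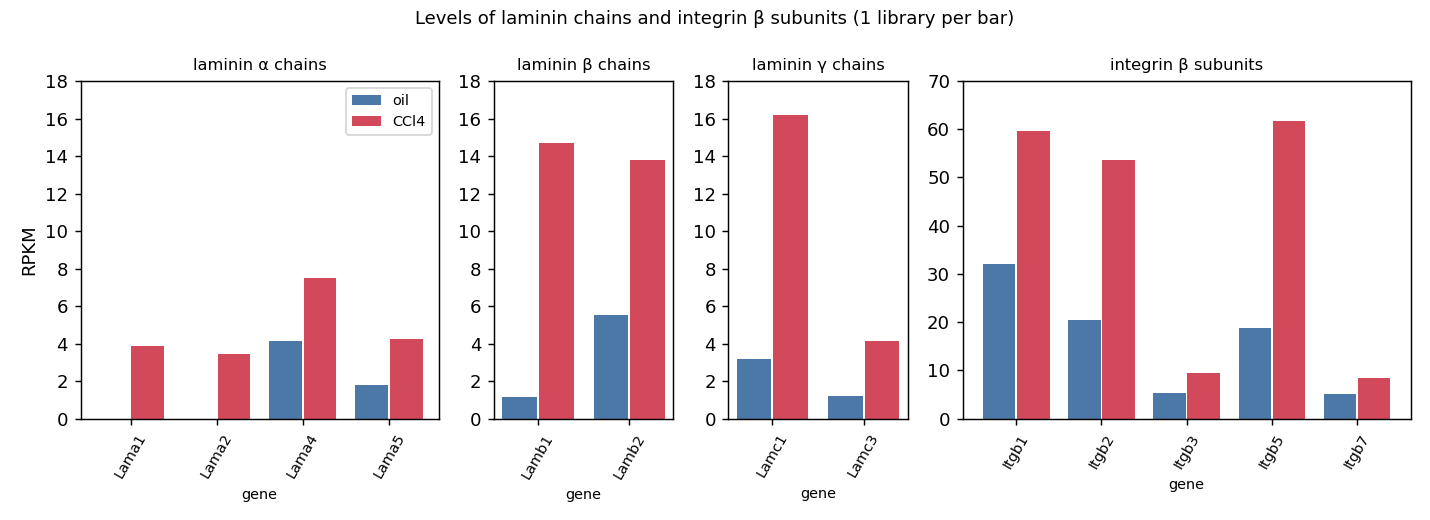
Level in RPKM of the laminin α, β and γ chains and of the integrin β subunits that reached 1 RPKM in a library, with 1 bar for the oil library (blue) and 1 for the CCl4 library (red); a missing bar is a gene listed at 0. Lamb1 and Lamb2 stand at 14.7 and 13.8 RPKM in CCl4 beside 1.13 and 5.51 RPKM in oil, and Itgb5 stands near Itgb1 in CCl4, at 61.7 and 59.7 RPKM, beside 18.8 and 32.1 RPKM in oil.

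The other basement membrane genes were described from a list of 20, of which 18 could be tested, 11 were called higher and 0 lower, with a median log2 ratio of 1.14. The chains of the widespread type IV collagen, Col4a1 and Col4a2, were at 22.1 and 13.3 RPKM in oil and at 89.1 and 57.2 RPKM in CCl4. Nid1, nidogen, which links laminin to type IV collagen, was at 8.79 RPKM in oil and 32.2 RPKM in CCl4. Hspg2, perlecan, was at 9.84 RPKM in oil and 25.9 RPKM in CCl4. These 4 genes were called, with log2 ratios from 1.39 for Hspg2 to 2.11 for Col4a2. Nid2, the other nidogen, had a log2 ratio of 1.12, which fell to 0.79 after scaling, and Agrn, agrin, a laminin-binding proteoglycan, had 0.83 and was not called. Among genes of the list with a value in both libraries, the matrix proteins Smoc2 and Sparc had the highest log2 ratios, 2.76 and 2.62. Smoc2 was at 1.56 RPKM in oil and 10.6 RPKM in CCl4, and Sparc at 51.1 and 315 RPKM. Col4a5 was listed at 0 in oil and was at 4.36 RPKM in CCl4, a log2 ratio of at least 2.12. Among the lowest were Tinagl1 at 0.55 and Bcam, a laminin receptor, at 0.76. Dag1, dystroglycan, a laminin receptor that is not an integrin, had a log2 ratio of 0.97 and was not called. Col18a1, a basement membrane collagen that hepatocytes express, went the other way, at 89.8 RPKM in oil and 50.5 RPKM in CCl4, a log2 ratio of -0.83. After scaling it was called lower, at -1.16, and the list held 8 called higher and 1 lower.

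Of the 3 integrin α subunits that mainly bind laminin, 1 was called. Itga6, the α6 subunit, was at 1.69 RPKM in oil and 6.35 RPKM in CCl4, a log2 ratio of 1.91 (1.78 to 2.05). Itga3, the α3 subunit, was at 2.24 RPKM in oil and 3.01 RPKM in CCl4, a log2 ratio of 0.42 (0.28 to 0.57). Itga7, the muscle-type α7 subunit, was at 1.76 RPKM in oil and 1.39 RPKM in CCl4, a log2 ratio of -0.34 (-0.55 to -0.13). Itga7 was the only member below its oil level, and it could not have been called lower from that level. Relative to Itga3, Itga6 stood at 0.752 in oil and 2.11 in CCl4. Itgb4, the β subunit that pairs with α6 in hemidesmosomes, was listed at 0 in both libraries.

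All 4 α subunits of the RGD-binding group were called higher. Itga8 (chr2:12106632-12301985), a receptor of nephronectin and other RGD proteins that is known from stellate cells and smooth muscle, was at 2.17 RPKM in oil and 13.3 RPKM in CCl4. Its log2 ratio of 2.62 (2.50 to 2.74), 6.14-fold, ranked 118. Itgav, the αv subunit of the receptors that can activate latent TGF-β, was at 5.34 RPKM in oil and 12.9 RPKM in CCl4, a log2 ratio of 1.27 (1.17 to 1.38). Itga5, the α subunit of the classical fibronectin receptor, was at 3.64 RPKM in oil and 7.87 RPKM in CCl4, a log2 ratio of 1.11 (1.0 to 1.23). The calls of Itgav and Itga5 were lost after scaling, at 0.95 and 0.79. Itga2b, the platelet and megakaryocyte αIIb subunit, was at 1.37 RPKM in oil and 3.51 RPKM in CCl4, a log2 ratio of 1.35 (1.15 to 1.56). With 1 RPKM added to each value the calls of Itga2b and Itga5 were lost, at 0.93 and 0.94, as was that of Lama5, at 0.91, which left 15 members called higher. The median log2 ratio of all 12012 genes tested was then 0.31, and the share of them called was not counted. The 6 platelet markers summed to 9.52 RPKM in oil and 26.8 RPKM in CCl4, with 2 of 3 tested called higher (1 after scaling or with 1 RPKM added) and Gp1ba, Gp5 and Gp6 listed at 0, and their part in the Itga2b value was not tested.

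Of the collagen-binding α subunits only Itga1 reached 1 RPKM. Itga1 was at 5.89 RPKM in oil and 15.1 RPKM in CCl4, a log2 ratio of 1.36 (1.25 to 1.46). The gene Pelo lies within Itga1, and without a stated strand setting reads of the pair may not be fully separated. Itga2, the neighbouring integrin gene on chromosome 13, and Itga11, the collagen receptor of fibroblasts, were listed at 0 in both libraries. The α4 and α9 subunits form a group of their own in sequence and bind VCAM-1 and several matrix proteins. Itga4, found on leukocytes, was at 2.02 RPKM in oil and 6.15 RPKM in CCl4, a log2 ratio of 1.61 (1.5 to 1.72). Itga9 was the most abundant α subunit per length in both libraries, at 16.8 RPKM in oil and 26.4 RPKM in CCl4, and its log2 ratio of 0.65 (0.56 to 0.74) was not called. A second listed transcript of Itga9 was at 12.1 RPKM in oil and 20.2 RPKM in CCl4, a log2 ratio of 0.75.

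The leukocyte α subunits, all of which but αE (Itgae) pair with β2, differed unequally. Itgax, the α subunit CD11c of dendritic cells and some macrophages, was at 1.25 RPKM in oil and 10.2 RPKM in CCl4. Its log2 ratio of 3.03 (2.86 to 3.21), 8.17-fold, was the highest of the integrins and ranked 70. Itgam, the subunit CD11b of monocytes, macrophages and neutrophils, was at 4.44 RPKM in oil and 14.1 RPKM in CCl4, a log2 ratio of 1.66 (1.57 to 1.76). Itgal, the subunit CD11a of the LFA-1 receptor found on most leukocytes, was at 11.1 RPKM in oil and 21.4 RPKM in CCl4, and its log2 ratio of 0.96 (0.86 to 1.05) spanned the call. Itgal stayed the highest of the 3, while Itgax went from 0.113 to 0.477 of its level. Itgam (chr7:128062640-128118491), Itgax (chr7:128129526-128150657) and Itgad (chr7:128173933-128205504) lie close together on chromosome 7, and Itgad was listed at 0 in both libraries, as was Itgae, the CD103 subunit.

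The markers of the leukocytes that carry these subunits did not move as 1 group. Of the macrophage markers, Marco was at 42.3 RPKM in oil and 278 RPKM in CCl4, whereas Clec4f, which marks resident Kupffer cells, was at 283 and 255 RPKM. These were the highest and lowest ratios of that list. Between them, Adgre1, Csf1r and Cd5l had log2 ratios of 1.25, 1.24 and 1.1, called only before scaling, and Vsig4 had 0.57. The dendritic cell markers summed to 7.43 RPKM in oil and 14.5 RPKM in CCl4 with 1 of 4 tested called higher (0 after scaling, 2 with 1 RPKM added) and Xcr1 listed at 0. The B cell markers summed to 5.07 and 21.5 RPKM with 3 of 4 called higher. The neutrophil markers summed to 286 and 159 RPKM with 3 of 5 called lower (5 after scaling, 1 with 1 RPKM added). The T and NK cell markers summed to 9.23 and 4.84 RPKM with 0 of 3 called (1 lower after scaling or with 1 RPKM added) and Cd3e, Cd8a and Ncr1 listed at 0. The part of these cells in the leukocyte integrin values was not tested.

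Of the 9 integrin β genes, Itgb2l included, 5 reached 1 RPKM and 2 were called higher. Itgb5, a partner of αv that binds vitronectin, was at 18.8 RPKM in oil and 61.7 RPKM in CCl4, a log2 ratio of 1.72 (1.62 to 1.82). Itgb2, the β2 subunit of leukocytes, was at 20.5 RPKM in oil and 53.6 RPKM in CCl4, a log2 ratio of 1.38 (1.30 to 1.47). Itgb1, the β1 subunit that serves most matrix receptors, was at 32.1 RPKM in oil and 59.7 RPKM in CCl4, and its log2 ratio of 0.90 (0.84 to 0.95) lay under the call. The ratio of Itgb5 to Itgb1 per length was 0.585 in oil, where Itgb1 was the most abundant member, and 1.03 in CCl4, where both stood at a near equal level. Itgb3, the β3 subunit of platelets and of the αvβ3 receptor, was at 5.23 RPKM in oil and 9.56 RPKM in CCl4, a log2 ratio of 0.87 (0.74 to 1.0). Itgb7, a lymphocyte subunit, was at 5.20 and 8.51 RPKM, a log2 ratio of 0.71 (0.59 to 0.84). Itgb6 and Itgb8, subunits that with αv can activate latent TGF-β, were listed at 0 in both libraries, as was Itgb2l.

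**Figure D3:**
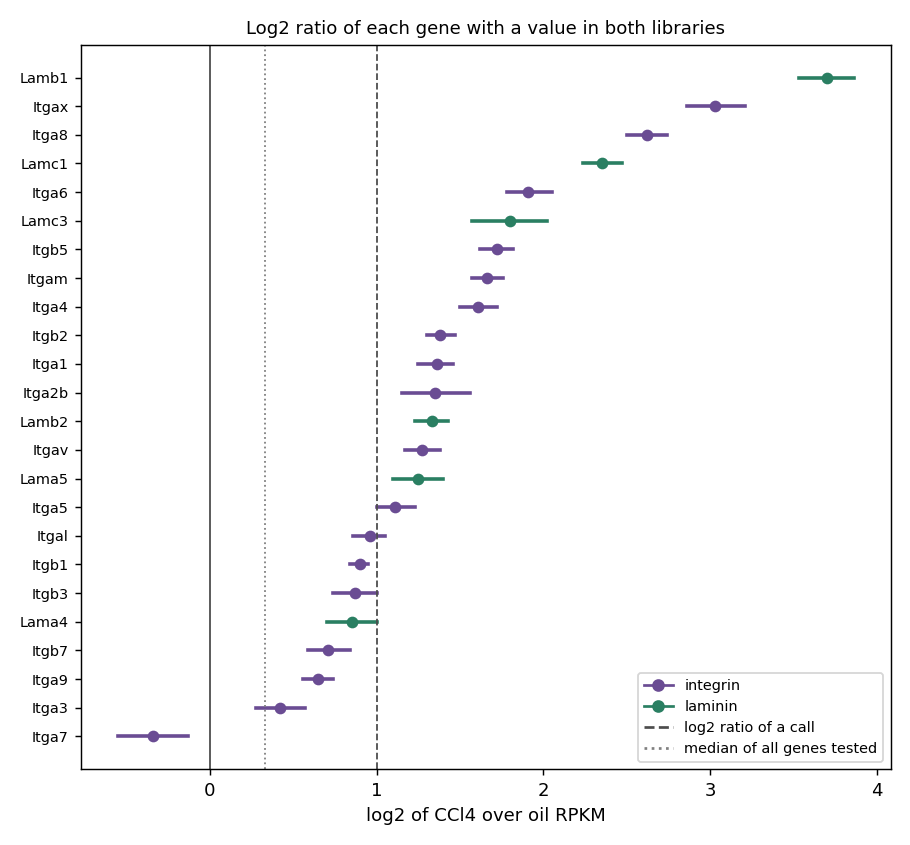
Log2 ratio of CCl4 over oil RPKM for the 24 integrin (purple) and laminin (green) genes with a value in both libraries, in order of the ratio; bars are 95% counting intervals from 1 library per group, the dashed line is a log2 ratio of 1 and the dotted line the median of all genes tested, 0.33. Lamb1, Itgax, Itga8 and Lamc1 lie above 2, and Itga7 lies below 0.

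The order of the members by level per length changed most for Lamb1, which rose in it, and Itga3, which dropped in it. Itgb1, Itgb5, Itgb2 and Itga9 were the 4 highest members in both libraries. Lamb1 was at place 24 of 26 in oil and place 8 in CCl4, Lamc1 at places 14 and 6, and Itgax at places 22 and 13. Itga3 was at place 15 in oil and place 25 in CCl4, and Itga7 at places 19 and 26. At a log2 ratio of at least 2, a call that 2.43% of all genes passed upward and 0.833% downward, 4 members were called higher (Lamb1, Lamc1, Itgax and Itga8) and 0 lower. With 1 library per group the spread between preparations is not known, so that near neighbours in the order, such as Itgb5 and Itgb1 in CCl4, cannot be ranked.

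The promoter windows of the members are shown because members of both families were higher in the same library, and the question was which short sequences they share. RefSeq windows of GRCm38.p6, from 250 bases before to 50 bases after the start of a gene, were at hand for 23 members, 13 of them called higher, and for 27025 genes in all. The GC box GGGCGG, read on both strands, was in 11 of the 23 windows, 8 of them of genes called higher, and in the windows of 38.2% of all genes. Below are the match nearest the start for 6 of these genes and the match to the AP-1 motif TGANTCA in Itgax, each on the strand of its gene with the match in capitals. Itgav and Lama2, also called higher, had no GC box far enough before the start to be printed. The motifs printed are not the most shared ones: the PU.1 core GAGGAA was in 15 of the 23 windows and in 31.3% of all. Where RefSeq has more than 1 start for a gene the window may use an inner one: for Lamb1 it counts from position 31265293, so the match shown lies 69 bases before that start but within the outer bounds of the gene given above, and for Lama5 and Itgax it counts from 180225859 and 128129550.
Lamb1, chr12:31265206-31265235, plus strand: cctccgccccctCCGCCCccgctctccatg
Itgb5, chr16:33829619-33829648, plus strand: cccgagctcgccCCGCCCcgtcccgcctag
Itgam, chr7:128062581-128062610, plus strand: cttgtagagcctCCGCCCtctttctttgag
Itga4, chr2:79255300-79255329, plus strand: acagctgctgcgGGGCGGggatggggatcg
Itga5, chr15:103366923-103366952, minus strand: ttcaggctccctCCGCCCcccagaggtgat
Lama5, chr2:180225901-180225930, minus strand: ccaggcgggcctGGGCGGggcctgacgtcc
Itgax, chr7:128129483-128129512, plus strand: cccacctcctcTGAGTCAcgctgacaactt

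In all, 11 motifs were searched, and each is given here. The TATA box TATAAA was in 0 of the 23 member windows and in those of 15.7% of all genes, and the palindromic SMAD motif GTCTAGAC in 0 and 0.248%. AP-1 was in 3 member windows (Itga3, Itga9 and Itgax) and in 8.97% of all, and the TEAD motif GGAATG in 2 (Itgb1 and Lamb3) and 16.6%. The PU.1 core GAGGAA, which also lies within the longer form, was in 15 member windows, 8 of them of genes called higher, and in 31.3% of all, and the longer form GAGGAAGT in 5, 1 of them of a gene called higher, and 3.69%. The SMAD motif CAGACA was in 9 member windows and 23.6% of all, the E-box CACCTG in 8 and 22.6%, the NF-kB motif in 13 and 53.5%, and the CArG box in 2 and 1.81%. These are matches of letters in a window, and binding was not measured.

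The proteins that join integrin tails to actin and to signalling were described from a list of 28, of which 26 could be tested, 10 were called higher and 0 lower, with a median log2 ratio of 0.76. Src, the tyrosine kinase of adhesion sites, was at 1.12 RPKM in oil and 5.32 RPKM in CCl4, a log2 ratio of 2.24. Fermt3, the kindlin of blood cells, was at 12.9 and 35.5 RPKM, and Flna, filamin A, at 21.2 and 59.2 RPKM. Fermt2, the kindlin of most other tissues, was at 20.0 and 18 RPKM, and Lims2 at 17.2 and 10.7 RPKM, and neither was called in the unscaled values. Ptk2, focal adhesion kinase, had a log2 ratio of 0.29, and Tns3, a tensin, and Parvg, a parvin of blood cells, had 1.77 and 1.55. Tln1, talin, which activates integrins, had a log2 ratio of 0.90, as did its partner Itgb1. After scaling 6 were called higher and 1 lower, Lims2 at -1.02.

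The matrix and plasma ligands of integrins went both ways. Of 21 in the table, 18 could be tested, 11 were called higher and 4 lower. Postn, periostin, a ligand of αv integrins, was at 1.43 RPKM in oil and 25.6 RPKM in CCl4, a log2 ratio of 4.16. Mfge8, an RGD ligand of αvβ5 and αvβ3, was at 10.7 and 80.6 RPKM, and Spp1, osteopontin, at 37.4 and 145 RPKM. Fbn1, fibrillin 1, had a log2 ratio of 2.99. Tnc, tenascin C, a ligand of α8 and α9 integrins, was listed at 0 in oil and was at 7.84 RPKM in CCl4. The 4 called lower were plasma proteins made by hepatocytes. Vtn, vitronectin, the ligand of αvβ5, was at 1036 RPKM in oil and 434 RPKM in CCl4, and Fgb, a fibrinogen chain, at 2575 and 579 RPKM, with log2 ratios of -1.25 and -2.15. Fga and Fgg, the other fibrinogen chains, had log2 ratios of -2.09 and -2.08. Fn1, fibronectin, was at 113 and 94.2 RPKM and was not called. Because the plasma proteins are so abundant, the list summed to 7384 RPKM in oil and 2443 RPKM in CCl4 although its median log2 ratio was 1.75.

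Among 12 tested cell surface proteins, ligands of integrins on other cells and partners in the same membrane such as the tetraspanins, 4 were called higher and 0 lower, with a median log2 ratio of 0.48. Vcam1, the ligand of α4β1, was at 29.6 RPKM in oil and 62.8 RPKM in CCl4, a log2 ratio of 1.09. Icam1, the main ligand of the β2 integrins, was at 22.0 and 28.2 RPKM, a log2 ratio of 0.36. Icam2 was at 13.9 and 28.9 RPKM, a log2 ratio of 1.06. The tetraspanin Cd9 had a log2 ratio of 1.27, and the lowest were Cdh1, E-cadherin, at -0.42, Thy1 at 0.13 and F11r at 0.16. After scaling only 1 of these genes, Jam3, was called. Jam3 was listed at 0 in oil and was at 2.66 RPKM in CCl4, so it could only be called higher.

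**Figure D4:**
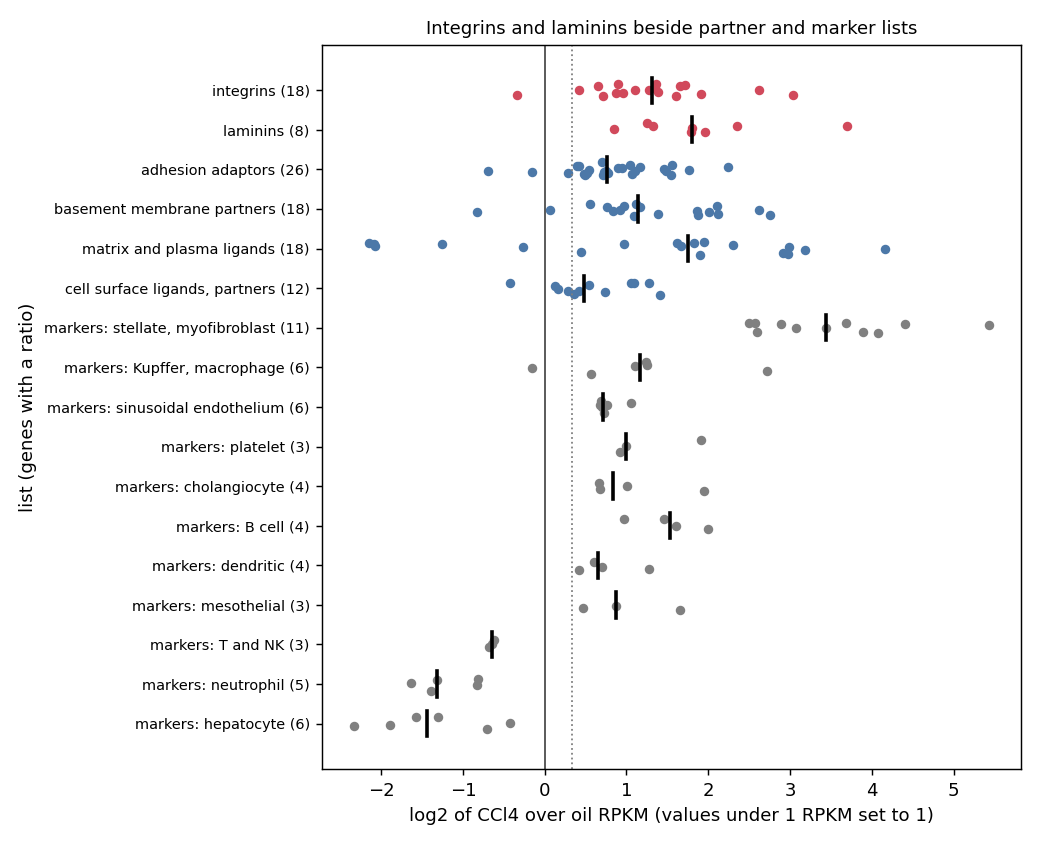
Log2 ratio of CCl4 over oil RPKM of each tested gene (points) in the integrin and laminin families (red), the partner lists (blue) and the marker lists of cell types (grey), with the number of genes in brackets, the median as a black bar and the dotted line at the median of all genes tested, 0.33; values under 1 RPKM were set to 1. The medians of integrins (1.31) and laminins (1.79) lie between those of the hepatocyte markers (-1.44) and of the stellate cell and myofibroblast markers (3.44).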

How the data were processed

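Total RNA of 2 hepatocyte preparations was sequenced. According to the submitters' processing notes, reads were handled with CASAVA 1.4 and TopHat2 on build mm10; the counting program, its strand setting and the annotation are not given in the sources used here. The deposited mRNA table held RPKM values per RefSeq transcript, which the authors listed at 0 when under 1. It also held the authors' own comparison columns (log2 change, p and q values), which were not used. A table of new lncRNAs held the deposited raw read counts, with transcript lengths; there, 1354 of 1354 oil and 1347 of 1347 CCl4 values under 1 RPKM were listed at 0.

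Symbols came from RefSeq (27049 of 27457 transcripts matched). Each gene was taken at its transcript of highest mean RPKM, values under 1 RPKM were set to 1, and a log2 ratio of at least 1 in either direction was called. Library totals were found as the values at which short RefSeq genes (under 400 bases) gave whole reads within 0.02, for 203 of 211 in oil and 215 of 223 in CCl4. The table of new lncRNAs used other totals, 62438197 and 70960849 reads, at which 9 of 211 and 9 of 223 of those genes gave whole reads. In a check on mRNA genes spanning under 900 bases, 15 of 70 gave whole reads in both libraries, so reads per member, taken as the fewest that fit both libraries, are inferred lower bounds. The script was tested on simulated data. Analyses used Python 3.11.15, pandas 2.3.3 and scipy 1.17.1. The rule for named genes took the members and, for each partner list, the 3 largest and 3 smallest ratios among genes with a value in both libraries, or genes that carry a member's result; partner genes beyond these were chosen after their values were seen. Alternatives were another scaling, 1 RPKM added, a minimum in both libraries, sums over transcripts and a log2 ratio of 2. The members, lists and motifs were chosen with earlier results of these data known. The values of 1 member are not reported here.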

Additional observations from a re-analysis of the deposited data

How the results depend on the processing

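No paired analysis was possible because there was 1 library per group, and no library could be left out. In each alternative tried, 0 members were called lower. At a log2 ratio of at least 2, calls higher went from 11 to 2 integrins, from 7 to 2 laminins, from 10 to 1 adhesion adaptors, from 11 to 5 basement membrane partners, from 11 to 6 matrix ligands and from 4 to 0 cell surface proteins. Scaling to the median mRNA lowered the adaptors to 6 and the cell surface proteins to 1, the integrin median to 0.99 and the laminin median to 1.47, and over all genes it turned 1984 higher and 647 lower calls into 1086 and 1180. Lower calls after scaling went from 0 to 1 in the adaptors (Lims2) and in the basement membrane partners (Col18a1). The count without Spp1 was chosen after seeing the data. With 1 RPKM added the medians were 1.03 for integrins and 1.64 for laminins. With at least 1 RPKM required in both libraries the laminin median was 1.56, since Lama1 and Lama2 were left out. No member's ratio changed sign among 102 values under the alternatives.

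The values under 1 RPKM are not known, so 11 members have no ratio and Lama1 and Lama2 only a bound. Depth was ample for the other members, but without replicate libraries the spread between mice, preparations and cell mixtures is unknown, and differences of single members can be read only as differences between these 2 libraries.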

Other observations

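In all, 3 unannotated transcripts assembled by the authors lay within 50000 bases of a member and are given here as read counts. Their RPKM values were made with totals of 62438197 reads in oil and 70960849 in CCl4, which differ from those inferred for the annotated genes, and the ratios here are scaled to them. One lay 23119 bases from Itga7 on chromosome 10 and had 52 reads in oil and 2 in CCl4, a log2 ratio of -4.89 with a 95% counting interval from -7.97 to -2.96. Another lay 3801 bases from Itgb1 on chromosome 8, with 20 reads in oil and 9 in CCl4, a log2 ratio of -1.34 (-2.66 to -0.14). The last lay 1235 bases from Itgae on chromosome 11, with 9 reads in oil and 21 in CCl4, and its interval of -0.15 to 2.35 included 0. Itga7 was also the only member below its oil level, and a relation between the 2 transcripts was not tested.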
